A study of Salmo salar with 54 samples.

Results

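Among 18901 genes measured in Atlantic salmon liver cells, 220 (1.16%) had their lowest read signal at the middle of the 3 concentrations of arsenite and a higher one at the top concentration. They were chosen on these data, by 3 conditions on the mean of log2(value + 1) over the 6 libraries of a group. The mean at 1 µM arsenite lay at least 1 log2 unit below the arsenite control, the mean at 3 µM lay at least 0.5 above that at 1 µM, and the control averaged a value of 20 or more. These conditions left fewer genes than the cap of 300. Of the 220, 58 carry a gene symbol and 162 only a locus name, and 218 are protein-coding by the reference annotation.

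The cells were primary hepatocytes of 6 male fish, freed from the liver by collagenase perfusion, grown on laminin-coated 3-dimensional scaffolds and exposed for 48 h. The groups were an arsenite (AsIII, inorganic trivalent arsenic) control and AsIII at 0.1, 1 and 3 µM, and on separate plates an arsenosugar glycerol (AsSug, an organic arsenic compound) control and AsSug at 5, 10, 50 and 250 µM. Each of the 9 groups held 6 libraries, 1 from each fish, so every fish contributed to every group. No genetic modification is given for any group, and the sources used here do not give what the control wells received beside medium. Primary hepatocytes come from a digested organ and can carry other liver cells.

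Cells that divide copy their DNA first and then enter mitosis, in which chromosomes condense, attach to a spindle at their kinetochores, are pulled apart and are shared between daughter cells by cytokinesis. Genes for the mitotic machinery are known from mammals to be transcribed together late in the cycle, after the genes for DNA replication. Adult hepatocytes rarely divide, although the liver keeps the capacity to do so after injury. Gene roles given here are those known from mammals.

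The 6 libraries at 250 µM AsSug were shallow (0.898 to 5.38 M reads, 207 to 921 genes without a read), while the other 48 held 8.79 to 24.0 M reads and lacked reads for 39 genes at most. RNA integrity, too, is given apart for the 250 µM samples by the labels. Hepatocyte markers were abundant: the summed signal of the 13 measured (among them alb2 and apoa1, which encode secreted plasma proteins) was 976186 to 1255070 in AsIII controls, 694330 to 950893 at 1 µM and 745773 to 905351 at 3 µM. The summed signal of 3 stellate cell and fibroblast markers (acta2, timp2 and fn1a) was 296 to 644 in controls, 982 to 1473 at 1 µM and 1588 to 2116 at 3 µM. That of 3 macrophage and granulocyte markers (mpeg1.1, cd68 and lyz) was 2532 to 3251, 1787 to 2386 and 1469 to 1935 in the same order. Endothelial markers (kdr, esamb and stab1) summed to 174 to 252, 260 to 346 and 421 to 563. The 2 cholangiocyte markers (anxa4 and jag1b) summed to 2847 to 3527, 2280 to 2731 and 3039 to 3373, and the erythrocyte marker rhag was at 210 to 395, 204 to 344 and 222 to 356. Single genes made up most of the stellate, macrophage, endothelial and cholangiocyte sums, and the other genes did not all move with them. Timp2 differed from control by 1.75 log2 units at 1 µM and 2.39 at 3 µM, against -0.12 and 0.28 for acta2 and 0.66 and -1.43 for fn1a. Cd68 was at -0.45 and -0.82, against 0.16 and 1.11 for mpeg1.1 and 0.21 and 0.60 for lyz. Esamb was at 0.64 and 1.401, against -0.72 and -1.13 for kdr and 0.12 and -0.39 for stab1. Anxa4 was at -0.33 and 0.01, against -0.13 and 1.04 for jag1b. None of the 9 listed lymphocyte markers was found by symbol among the measured genes, of which 32.9% carry a symbol. No marker of any cell type was found by symbol among the 220, and the part of cell composition in the results was not tested. In bulk RNA, fewer cells of a type and less RNA per cell cannot be told apart.

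Since the AsIII control, 1 and 3 µM libraries chose the 220 genes, their values in those groups are a description. The median log2 difference from control was -0.02 at 0.1 µM, -1.38 at 1 µM (range -4.06 to -1.002) and -0.53 at 3 µM (range -3.29 to 1.98), against -0.00, -0.01 and -0.02 over all 18901 genes. Taken within each fish, the median over the 220 genes ran from -0.26 to 0.15 at 0.1 µM, from -1.63 to -1.32 at 1 µM and from -0.81 to -0.41 at 3 µM. Every fish had its lowest median at 1 µM. The 1 µM value lay below the same fish's control in 6 of 6 fish for 215 genes and in 5 fish for the other 5. A higher value at 3 than at 1 µM was seen in 6 of 6 fish for 177 genes, in 5 fish for 39 and in fewer for 4. All 1 µM libraries lay below every control library for 182 of the 220 (16% of all genes did so), and below every 3 µM library for 102 (18% of all genes). Both held for 95, a count that the selection favours and for which the share over all genes was not computed.

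**Figure D1:**
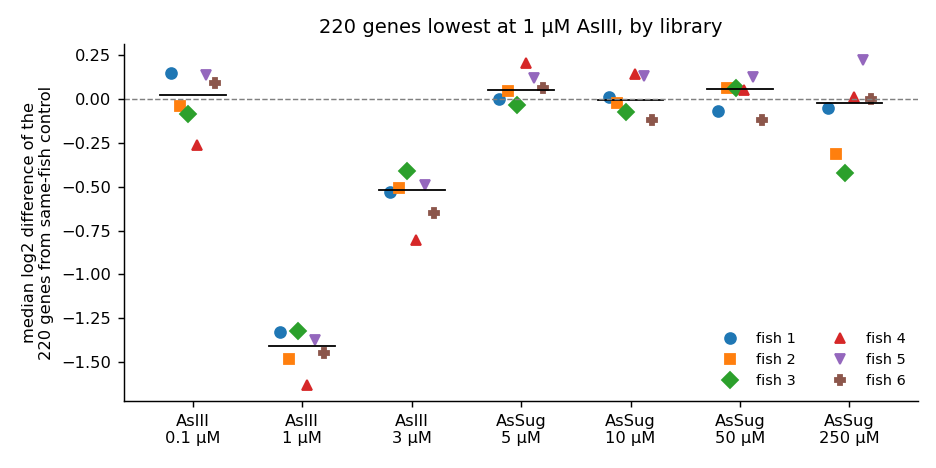
Median log2 difference of the 220 genes from the control library of the same fish (vertical axis), for each exposed group (horizontal axis). Each symbol is 1 fish and the bar is the median of 6 fish. The 1 µM AsIII medians run from -1.63 to -1.32 and the 3 µM medians from -0.81 to -0.41, while the AsSug medians up to 50 µM stay within -0.12 to 0.20.

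All 220 genes regained at least 0.5 log2 units of their fall, because the conditions required it. As a description, the median gene regained 59.5% of its log2 fall between 1 and 3 µM, and the lowest 18.9%. At 3 µM, 31 genes lay above control and 189 below, 94 lay within 0.5 log2 units of it, 37 were still at least 1 unit below and 12 were at least 0.5 above. In the limma fit over all genes, all 220 genes were called lower at 1 µM (27.3% of all genes were), 132 were called lower at 3 µM (35.1% of all genes) and 12 higher (36%), and 210 were called higher at 3 than at 1 µM (27.8%). Nothing is read from these counts, because the same contrasts chose the genes.

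Genes of mitosis and chromosome segregation were the largest named group. Lists were matched by gene symbol, so the 162 genes with only a locus name could not match any. For the 114 entries of the mitosis list, 36 measured genes were found. Of these 36, 27 had a control mean of 20 or more, and 10 of the 27 (37.04%) were in the set. The share was 1.26% over the 17437 genes with such a control mean, which include genes without a symbol. The list was drawn up with earlier results of these data known, so these shares are a description. The 10 are top2a, mki67, cenpf, cenpe, prc1b, ect2, cdca3, cdc20, incenp and kif4. Log2 differences from control ran from -2.48 to -1.22 at 1 µM and from -1.53 to 0.72 at 3 µM, where 9 of the 10 were still below control. Across the whole list the median difference was -0.79 at 1 µM and -0.20 at 3 µM, and 28 of 36 genes (77.8%) were lower at 1 µM than in both control and 3 µM, against 23.8% of all genes. With a control mean of 50 or more required, 3 mitosis genes met the conditions. That limit also leaves out list genes that are not in the set, and the share among those it keeps was not computed.

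Top2a, whose product untangles DNA before chromosomes part, and mki67, whose product Ki-67 coats mitotic chromosomes and marks dividing cells, had all 6 libraries at 1 µM below every control and every 3 µM library. The lowest, median and highest signals of top2a were 45.5, 55.6 and 74.0 in controls, 35.9, 44.1 and 57.4 at 0.1 µM, 6.85, 12.1 and 18.8 at 1 µM and 22.4, 25.9 and 41.2 at 3 µM. That is a log2 difference from control of -2.16 ± 0.16 (SE of the fit, n = 6) at 1 µM and -0.96 at 3 µM. Signals of mki67 were 33.8, 46.5 and 61.0 in controls, 33.6, 43.5 and 60.7 at 0.1 µM, 7.05, 15.03 and 18.7 at 1 µM and 30.6, 35.8 and 51.5 at 3 µM, with overlap between controls and 3 µM. Its log2 difference was -1.77 ± 0.21 at 1 µM and -0.27 at 3 µM.

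Cenpf and cenpe encode proteins of the kinetochore. Cenpf had signals of 12.3, 29.5 and 42.5 in controls, 4.20, 15.7 and 22.1 at 0.1 µM, 5.59, 9.19 and 11.4 at 1 µM and 26.3, 45.2 and 63.1 at 3 µM. It was the 1 mitosis gene of the set above control at 3 µM, with log2 differences of -0.98 at 0.1 µM, -1.52 at 1 µM and 0.72 at 3 µM. Its 0.1 µM value was the lowest of the 220 genes at that concentration. Cenpe, a kinesin motor that moves chromosomes to the spindle's middle, had signals of 14.9, 21.9 and 28.4 in controls, 3.27, 7.29 and 8.99 at 1 µM and 9.75, 19.5 and 34.98 at 3 µM. Here too the 1 µM libraries were below all others of the 3 groups.

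Among genes for the central spindle and cytokinesis, prc1b (a microtubule bundler) had signals of 14.8, 17.4 and 30.3 in controls, 1.64, 3.94 and 8.70 at 1 µM and 8.78, 12.5 and 19.99 at 3 µM. Ect2, which is needed for cytokinesis, had 13.2, 26.8 and 37.9 in controls, 0.932, 3.19 and 11.1 at 1 µM and 7.30, 10.8 and 14.99 at 3 µM. Its 1 µM libraries lay below every control library and overlapped those at 3 µM, and its log2 difference of -2.48 ± 0.29 at 1 µM was the lowest of the 10. These signals are small. Of the 220 genes, 26 had fewer than 60 reads summed over the 6 libraries at 1 µM, and the lowest sum was 20 reads. Kif4, a motor that binds chromosome arms, had 18.9, 24.1 and 38.8 in controls, 5.45, 9.54 and 25.3 at 1 µM and 13.9, 16.3 and 27.5 at 3 µM. The library of fish 1 gave that 25.3, with the other 5 libraries at 5.45 to 10.3.

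The remaining mitosis genes of the set are cdc20, cdca3 and incenp. Cdc20 activates the ubiquitin ligase that starts chromosome separation, and had signals of 33.8, 51.3 and 85.1 in controls, 10.9, 27.6 and 32.2 at 1 µM and 26.4, 37.7 and 42.5 at 3 µM. Cdca3, which promotes entry into mitosis, had 23.1, 33.3 and 54.5 in controls, 0, 8.88 and 14.7 at 1 µM and 5.72, 10.5 and 18.7 at 3 µM. The 1 µM libraries of both lay below all controls and overlapped the 3 µM libraries. Incenp, the scaffold that holds Aurora B kinase on chromosomes, had 59.3, 106 and 137 in controls, 22.4, 35.6 and 62.1 at 1 µM and 56.5, 79.1 and 106 at 3 µM. Its 1 µM libraries overlapped the lower end of both other groups, and those of control and 3 µM overlapped widely.

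Other genes with a role in division were in the set but not in the list, and were picked out after their values were seen. They are cdc2 (the kinase CDK1, which drives entry into mitosis), borea (borealin, which binds incenp), numa1 (a spindle pole protein) and misp (a spindle positioning protein). Log2 differences at 1 and 3 µM were -1.90 and -0.98 for cdc2, -1.56 and -0.82 for borea, -1.45 and -0.25 for numa1, and -1.40 and -0.44 for misp.

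**Figure D2:**
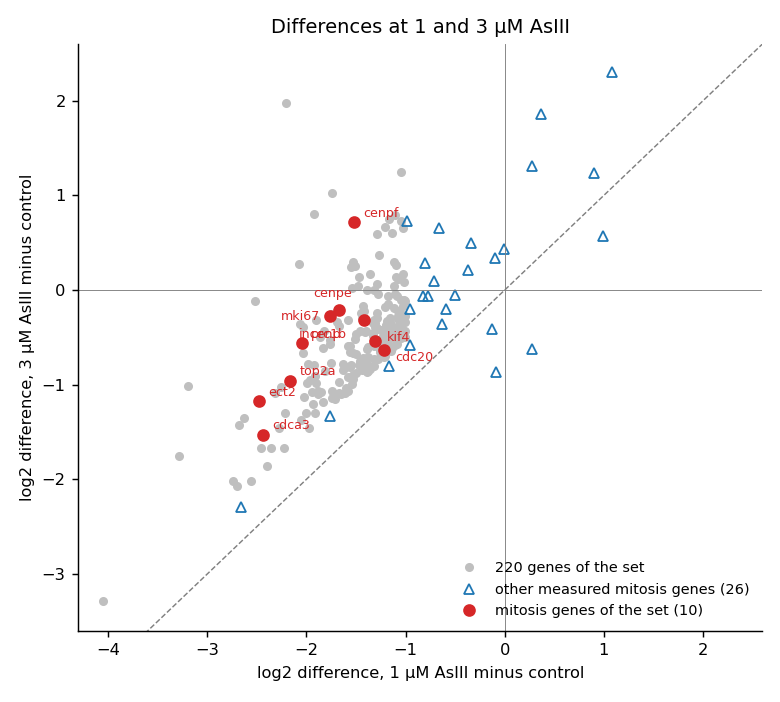
Log2 difference from control at 1 µM AsIII (horizontal axis) against that at 3 µM (vertical axis). Grey points are the 220 genes, red points the 10 mitosis genes among them and open triangles the 26 other measured genes of the mitosis list. Points above the dashed line are higher at 3 than at 1 µM, as 28 of 36 mitosis genes were while also lying below control at 1 µM.

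Some mitosis genes went in this direction but missed a limit of the conditions, and others did not go in it. The genes outside the set named here were picked out after their values were seen. Of the 36, 30 were below control at 1 µM and 6 above. Aspm (a spindle pole protein), ccnb1 (cyclin B1, the partner of CDK1) and ncapd2 (a condensin subunit) were at least 1 log2 unit below control at 1 µM but regained under 0.5 units by 3 µM, with differences of -2.66 and -2.30, -1.76 and -1.34, and -1.17 and -0.80. Ube2s, ube2c and cdc25b, which act in mitotic protein degradation and CDK1 activation, were above control at 1 µM and further above at 3 µM: 1.08 and 2.31, 0.27 and 1.31, and 0.37 and 1.86. Aurka (Aurora A kinase) was at -0.66 and 0.66, so it was lowest at 1 µM but its fall was too small for the conditions.

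No gene of the DNA replication list was found in the set by symbol. Of 32 measured in that list, 24 had a control mean of 20 or more, and the median log2 difference was -0.37 at 1 µM and -0.20 at 3 µM. In 15 of 32 the signal was lower at 1 µM than in both other groups, against 23.8% of all genes. In the DNA repair and checkpoint list, 2 of 31 measured genes were in the set. Fanci, of the Fanconi pathway of crosslink repair, had signals of 36.1, 38.6 and 53.2 in controls, 11.1, 16.8 and 26.97 at 1 µM and 29.8, 38.3 and 58.0 at 3 µM, with the 3 µM range spanning that of the controls. Parpbp, which restrains homologous recombination, differed from control by -1.28 at 1 µM and -0.04 at 3 µM. The median of that list was -0.30 at 1 µM and -0.39 at 3 µM. Of 35 measured hepatocyte secreted and metabolic genes 1 was in the set, the liver transcription factor gene foxa1 (-1.15 and -0.64). The median of that list was -0.40 at 1 µM and -0.34 at 3 µM, and 21 of the 35 were lower at 1 µM than in both other groups.

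Matched by symbol, which the 162 genes with only a locus name lack, the other 12 lists had 0 genes in the set. They covered G1 to S regulators, chromatin and histone regulators, cohesin with nuclear pore and RNA processing, the circadian clock, sterol and fatty acid synthesis, fatty acid oxidation with PPAR targets, insulin and growth factor signalling, TGF-beta with BMP, Notch, Wnt and Hippo signalling, extracellular matrix and adhesion, innate immunity and interferon, membrane and solute transport, and glutathione with heat shock and ATF4 response. The last of these had a median of 1.61 at 1 µM and 1.59 at 3 µM over 22 genes, which is the other direction.

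Outside cell division, the named gene with the largest return was prkag2a, a regulatory subunit of the energy sensor AMPK. Its signals were 153, 184 and 233 in controls, 105, 148 and 371 at 0.1 µM, 25.1, 54.01 and 73.8 at 1 µM and 230, 308 and 526 at 3 µM. The 1 µM libraries lay below every other AsIII library, and log2 differences from control were -1.92 ± 0.17 at 1 µM and 0.80 at 3 µM. Phldb2b, which anchors microtubules at the cell cortex, behaved alike in direction, with -1.11 and 0.79. These 2 and cenpf are the 3 named genes among the 12 that lay at least 0.5 units above control at 3 µM. Over all 220 the largest return was that of LOC106604175, a gene without a symbol, picked out for that value. Its signals were 67.5, 92.9 and 136 in controls, 40.99, 74.5 and 110 at 0.1 µM, 13.1, 19.4 and 28.9 at 1 µM and 269, 370 and 529 at 3 µM, an 18.3-fold difference between 3 and 1 µM on the log2(value + 1) scale.

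Other named genes returned to within 0.5 log2 units of control. Mfsd2ab, a carrier of lysophospholipids with long-chain omega-3 fatty acids, had signals of 93.9, 125 and 186 in controls, 142, 193 and 332 at 0.1 µM, 26.2, 48.9 and 79.3 at 1 µM and 125, 155 and 205 at 3 µM. Its 1 µM libraries lay below all others. Sema4d (semaphorin 4D, a membrane signalling protein) differed from control by -2.07 at 1 µM and -0.36 at 3 µM, and foxred2 (a flavoprotein of endoplasmic reticulum degradation) by -1.54 and 0.02. Tp53inp2b, a regulator of autophagy, had signals of 574, 771 and 1375 in controls, 250, 340 and 572 at 1 µM and 959, 1055 and 1604 at 3 µM, where fish 1 stood apart from the other 5 libraries (959 to 1122).

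Other members stayed low. Mustn1b (a small nuclear protein of muscle and cartilage) had signals of 183, 300.2 and 414 in controls, 36.4, 54.5 and 70.2 at 1 µM and 56.2, 83.5 and 103 at 3 µM, so both exposed groups were below all controls. Its log2 differences were -2.40 and -1.86, while those of the gene named as its duplicate, mustn1a, were -0.27 and 0.09. Slc25a39, the carrier that brings glutathione into mitochondria, had signals of 97.3, 114 and 162 in controls, 16.8, 23.04 and 34.3 at 1 µM and 30.2, 37.3 and 46.2 at 3 µM (differences of -2.36 and -1.67). Bhlh3, a basic helix-loop-helix gene by its symbol, had the lowest named difference at 1 µM, -2.70, with -2.07 at 3 µM. Lacc1, an enzyme of macrophage metabolism, had -2.23 and -1.67. The lowest difference of the 220 was that of LOC106612015, -4.06 and -3.29.

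**Figure D3:**
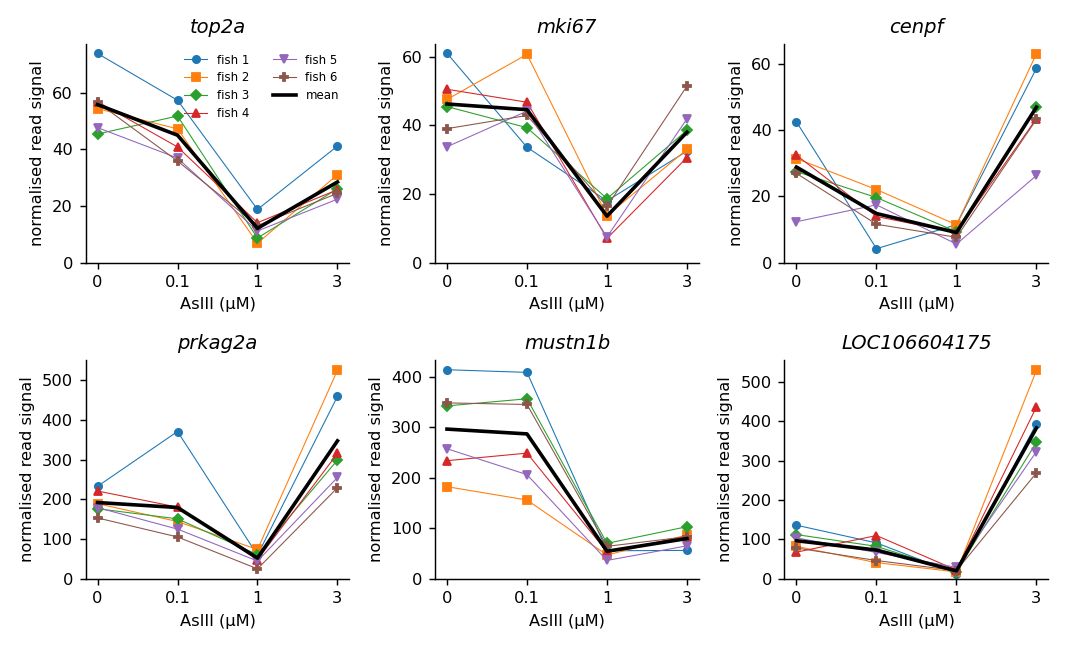
Normalised read signal (vertical axis, from 0) at AsIII control (0), 0.1, 1 and 3 µM (horizontal axis, evenly spaced) for 6 genes. Thin lines join the 6 fish and the thick line is their mean. All 6 genes are lowest at 1 µM, with cenpf, prkag2a and LOC106604175 above control at 3 µM and mustn1b still below every control library.

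Of the most abundant named genes, si:ch73-22o12.1 had control signals of 642 to 894 against 301 to 454 at 1 µM and 441 to 673 at 3 µM. Tfcp2l1, a transcription factor gene, had 369 to 674 in controls, 141 to 213 at 1 µM and 220 to 464 at 3 µM. Lrrc58b, a leucine-rich repeat gene, had 253 to 428, 100.7 to 189 and 203 to 267. Control means of the 220 ran from 20.3 to 2074 with a median of 56.9, and 92 were under 50.

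The thresholds cut through a continuum. Just inside the limit on the fall were mpzl2 (-1.01), chd3 (-1.03) and arhgap29a (-1.06), and just outside shc2 (-0.998), sr-bi (-0.99) and myb (-0.98). Just inside the limit on the return were foxa1 (0.51), si:ch73-22o12.1 (0.51) and mustn1b (0.54), and just outside zgc:136858 (0.50), mcf2a (0.49) and tbx16l (0.49). For the control mean, prc1b (20.3), ten1 (20.9) and exd1 (21.6) were just inside, and pcat2 (18.8), nt5dc2 (18.7) and ccdc166 (17.6) just outside. By the order of genes in the reference annotation, 218 of the 220 could be placed, and 1 pair stood side by side, fanci and LOC106561277.

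At 0.1 µM AsIII, which shares its controls with the selection and is given without a test, 10 of the 220 genes were at least 0.5 log2 units above control and 4 at least 0.5 below. The share of all genes beyond these limits was not computed, so nothing is read from the counts. The SD over genes of the difference at 0.1 µM was 0.27 for the 220 and 0.20 for all genes. The largest difference was that of LOC106606596, 1.12, a gene at -1.92 at 1 µM and -0.90 at 3 µM. Its signals were 12.7, 36.8 and 48.3 in controls, 28.8, 81.1 and 141 at 0.1 µM, 2.49, 7.76 and 14.2 at 1 µM and 9.75, 14.999 and 28.7 at 3 µM.

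The AsSug plates took no part in the selection, so the 220 genes were tested there (limma, fish as a term, adjusted over all genes). Up to 50 µM few were called, though the share was above that of all genes at 5 and 50 µM. It was 1.36% of the 220 at 5 µM (0.106% of all genes) and 3.64% at 50 µM (0.563%). At 5 µM, 3 of 220 were higher and 0 lower than in the AsSug control (0.085% and 0.0213% of the 18818 genes tested were called higher and lower). At 10 µM 0 were called by limma (0.0159% of all genes), with 20 of 220 and 1112 of all genes at an unadjusted p under 0.05. EdgeR called 0 as well, and DESeq2, which gave an adjusted p for 43 of the 220 only, called 0 of these. At 50 µM, 6 were higher and 2 lower (0.372% and 0.191% of all genes). At an unadjusted p under 0.05 there were 38 of the 220 and 1323 of all genes at 5 µM, and 37 and 2028 at 50 µM. The counts at 5 and 50 µM were 0 when fish was left out of the model. With all AsSug groups in 1 fit, 0 were called at 5 µM, and 1 higher and 0 lower at 50 µM. Leaving out 1 fish moved the higher count at 5 µM to 1 without fish 2 or fish 3 and to 5 without fish 1 or fish 6, and at 50 µM to 1 without fish 2 and to 3 without fish 5. The lower count at 50 µM was 1 without fish 2 or fish 3.

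The 3 genes higher at 5 µM were also higher at 50 µM; both comparisons use the same control libraries. LOC106606596 had signals of 40.8, 67.9 and 94.0 at 5 µM, against 18.98, 31.5 and 43.9 in the AsSug control (1.11 log2 units higher, limma adjusted p = 0.0013), and the difference at 50 µM was 0.82 (adjusted p = 0.00908). It was higher at 5 µM in each of the 6 fish. LOC106579731 differed by 0.78 at 5 µM (adjusted p = 0.0113) and 0.69 at 50 µM (adjusted p = 0.0113), and LOC106601335 by 0.66 (adjusted p = 0.0263) and 0.68 (adjusted p = 0.00761). At 1 µM AsIII these 2 were at -3.19 and -1.10, and at 0.1 µM AsIII at 0.32 and 0.43. These loci carry no symbol, and no role is given for them.

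The other calls at 50 µM were svild (supervillin, which links actin to the membrane), LOC106568345 and LOC106569244, which were higher, and LOC106604175 and LOC106570299, which were lower. Svild had signals of 181, 221 and 238 at 50 µM against 144, 170 and 203 in control (0.34 higher, limma adjusted p = 0.0469). LOC106604175 had 30.5, 67.5 and 75.8 at 50 µM against 59.8, 109 and 127 in control (-0.74, adjusted p = 0.00133). No mitosis gene of the set was called at 5, 10 or 50 µM: top2a differed by 0.05 at 5 µM and -0.06 at 50 µM (limma adjusted p = 0.983 and 0.937), and mki67 by -0.05 and -0.17 (adjusted p = 0.975 and 0.614).

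At 250 µM AsSug, 66 genes were lower and 59 higher than in control among the 218 that passed the filter on low values, or 57.3%, against 36.5% lower and 26.7% higher of all genes (63.2% in all). The share called was not above that background. With library totals as the scale, 48 were lower and 74 higher, and the median over all genes was 0.09 in place of -0.20 log2 units. The median difference of all 220 was -0.15 with an SD over genes of 1.59, against -0.20 and 1.33 over all genes, and single genes ran from -4.12 to 5.66. The genes that were all lower at 1 µM AsIII lay on both sides of their control here. Of 1320 library values of the set at 250 µM, 61 in 43 genes were 0. Over all 18901 genes, 207 to 921 were without a read in each of these libraries. These libraries had the lower depth given above, and the labels give their RNA integrity apart from the other samples. The part of depth or of RNA integrity in the values was not tested. Of those called, 49 of the 66 lower genes were lower in 6 of 6 fish, and 52 of the 59 higher genes were higher in 6 of 6. A call with fish as a term favours such counts, and the share over all called genes was not computed, so nothing is read from them.

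**Figure D4:**
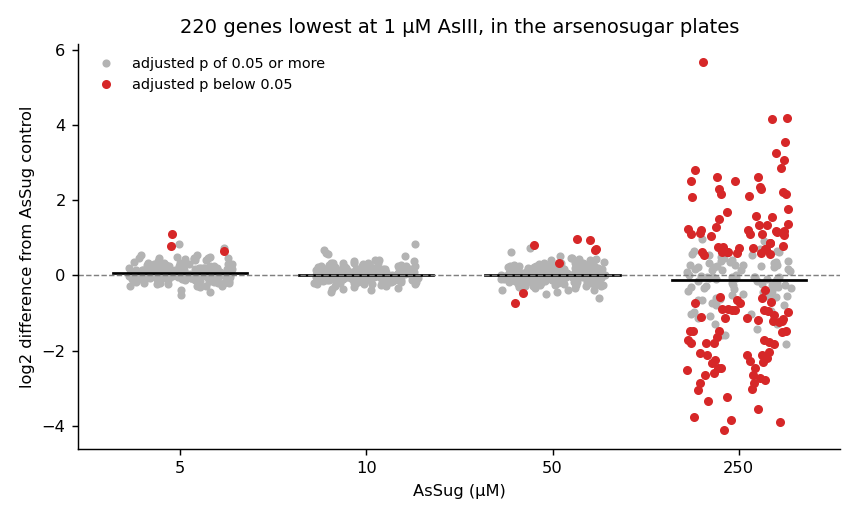
Log2 difference from the AsSug control (vertical axis) of the 220 genes (218 at 250 µM) at 5, 10, 50 and 250 µM AsSug (horizontal axis). Red points have a limma adjusted p below 0.05 over all genes, and the bar is the median. Called genes number 3, 0, 8 and 125, and those at 250 µM lie on both sides of 0.

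Named genes that fell most at 250 µM were lacc1, mia3, bhlh3, numa1 and mustn1b. Mia3, whose product TANGO1 loads collagen for export from the endoplasmic reticulum, had signals of 6.06, 17.1 and 54.9 at 250 µM against 129, 158 and 184 in control (-3.03 ± 0.37, limma adjusted p = 3.89e-06, lower in 6 of 6 fish). Mustn1b had 37.7, 70.9 and 86.8 against 214, 364 and 494 (-2.33 ± 0.18, adjusted p = 3.71e-08). The groups did not overlap for either gene. Lacc1 (-3.34, adjusted p = 0.00156), bhlh3 (-2.51, adjusted p = 0.00207) and numa1 (-2.47, adjusted p = 0.00177) each had libraries without reads at 250 µM. Their size moved with the setting: with a pseudocount of 5 they were at -2.06, -1.88 and -1.70 in the order named, and bhlh3 was at -1.82 without fish 3 and -1.75 in edgeR, all still called.

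Those that rose most were chd3, klf12b, ptprma, nhsl3 and incenp. Chd3, a chromatin remodeller of the NuRD complex, had signals of 289, 644 and 1060 at 250 µM against 21.9, 35.2 and 39.5 in control (4.19 ± 0.24, limma adjusted p = 1.75e-09, higher in 6 of 6 fish). Klf12b, a Krüppel-like repressor, had 103, 202 and 315 against 12.5, 25.9 and 48.0 (2.86 ± 0.29, adjusted p = 5.53e-07). Ptprma, a receptor tyrosine phosphatase of cell contacts, had 331, 682 and 1224 against 65.3, 87.0 and 134 (2.80 ± 0.27, adjusted p = 3.18e-07). No library overlapped between groups in these 3. Nhsl3 rose by 2.11 ± 0.30 (adjusted p = 2.08e-05). Prkag2a and tfcp2l1 also rose, by 1.17 ± 0.17 and 1.57 ± 0.17 (adjusted p = 2.92e-05 and 1.25e-06), as did slc25a39 (0.73 ± 0.21, adjusted p = 0.00612) and foxa1 (0.76 ± 0.21, adjusted p = 0.0047).

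Of the 10 mitosis genes, 2 fell, 1 rose and 7 were not called at 250 µM, where 36.5% of all genes were called lower and 26.7% higher. Top2a had 0, 22.4 and 50.5 at 250 µM against 32.6, 52.1 and 83.4 in control (-1.71 ± 0.55, limma adjusted p = 0.0127, lower in 6 of 6 fish). Its difference was -0.93 without fish 2, -0.98 in edgeR and -1.02 in DESeq2, each still called. Mki67 was at -0.71 ± 0.30 (adjusted p = 0.0481), a call that 8 of 15 alternative settings lost. Incenp had 178, 244 and 467 against 50.7, 80.9 and 133 (1.68 ± 0.23, adjusted p = 1.46e-05), with no overlap, and the 467 of fish 6 stood apart from the other 5 libraries. Cenpf was at -0.73 ± 0.65 (adjusted p = 0.337) and cenpe at -1.09 ± 0.54 (adjusted p = 0.0925). Of the division genes outside the list, which were picked out after their values were seen, cdc2 (-1.502, limma adjusted p = 0.0257) and borea (-2.12, limma adjusted p = 0.0242) fell, both in 6 of 6 fish. Their values under the alternative settings are not given here. In the AsSug libraries up to 50 µM, fish means were low, at 9.60 to 22.9 for borea and 23.4 to 54.7 for cdc2. At 250 µM 1 read equals 1.69 to 9.41 units of signal. Numa1 fell too (-2.47, adjusted p = 0.00177), and the value of misp at 250 µM is not given here. Over the 35 mitosis genes tested, 8 were called lower and 9 higher, against the same 36.5% and 26.7% of all genes, with a median of -0.32.

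Levels differed between fish, as seen in the cells prepared from each. Libraries of the same fish share both the animal and the preparation of its liver cells. The test used here sets differences between fish against the spread among libraries of the same fish. It cannot separate the animal from its cell preparation, and the part of each was not tested. In the 24 AsSug control, 5, 10 and 50 µM libraries, 129 of the 220 genes (58.6%) differed between the 6 fish in limma's F test over all genes, against 36.8% of all genes. Of the 10 mitosis genes 8 were called, the exceptions being cenpe (adjusted p = 0.0503) and kif4 (adjusted p = 0.179). Cdca3 averaged 55.2, 49.8, 40.4, 40.6, 23.3 and 17.4 in fish 1 to 6 (adjusted p = 2.63e-07), and cdc20 79.8, 63.3, 50.98, 69.0, 41.6 and 33.5 (adjusted p = 2.33e-06). Fish 1 had the highest mean of 7 of the 10 and fish 4 of the other 3. Fish 6 had the lowest of 6, fish 5 of 3 and fish 2 of 1. The share over all genes was not computed and the 10 genes vary together, so nothing is read from these counts. Over all 220 genes, the median log2 difference from the AsSug control mean was also highest in fish 1 among AsSug control libraries (0.19). It was lowest there in fish 5 (-0.19). The highest fish mean was 1.43 to 3.17 times the lowest.

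The AsIII controls are separate libraries of the same fish, but they took part in the selection, so their values are a description. These controls gave the highest value to fish 1 in 8 of the 10 genes, and the lowest to fish 5 in 7. They gave the lowest to fish 3 in 2 and to fish 6 in 1 only, while fish 6 had the lowest AsSug mean in 6. In cdca3 the AsIII controls read 54.5, 39.1, 27.5, 48.4, 23.1 and 23.2 in fish 1 to 6, with fish 1 and 4 highest and fish 5 and 6 lowest. Not every gene kept its order of fish: ect2 of fish 6 had the lowest AsSug mean (11.4) but read 29.7 in the AsIII control, below fish 1 (37.9) only. After group means were removed, the 45 pairs among the 10 mitosis genes had a median Pearson correlation of 0.59 across those 24 AsSug libraries, against 0.27 over the 630 pairs of the whole list, 0.12 over the 24090 pairs of the 220 genes and -0.00 over all genes. The libraries share fish, so these correlations are a description that holds the differences between fish.

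**Figure D5:**
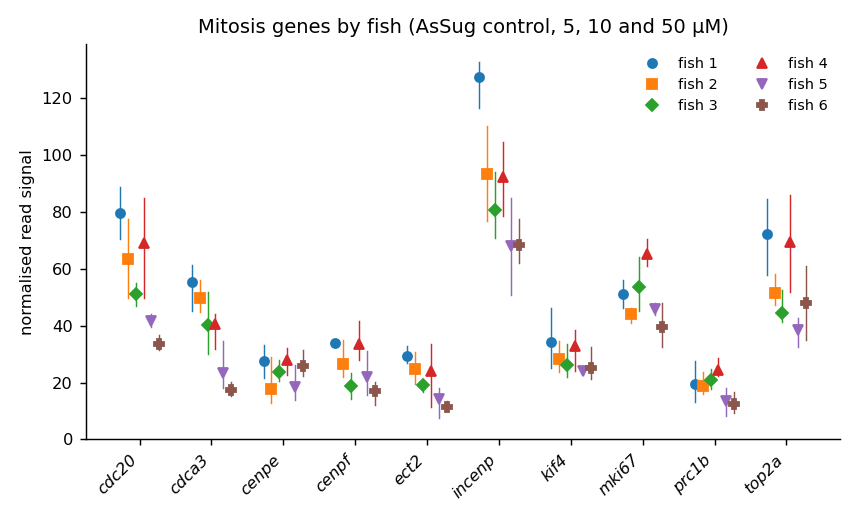
Normalised read signal (vertical axis, from 0) of the 10 mitosis genes (horizontal axis) in each of 6 fish. Each symbol is the mean of the AsSug control, 5, 10 and 50 µM libraries of 1 fish, and the line runs from its lowest to its highest library. Fish 1 or fish 4 has the highest mean of every gene, as with cdca3 at 55.2 in fish 1 and 17.4 in fish 6.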

How the data were processed

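RNA-seq of 54 libraries (9 groups of 6) was analysed from the deposited table, whose values are a normalised read signal: read counts per gene over a size factor for each library, set by the authors, a unit tested on the values (whole reads within a tolerance of 0.1). HISAT2, featureCounts, Subread and DESeq2 1.40.2 are named in the submitters' processing notes. The sources used here give no genome build, annotation or strand setting. Names came from a RefSeq table of Ssal_v3.1 (18900 of 18901 identifiers matched). Salmon carry duplicated genes, and how reads shared between copies were counted is not given.

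The gene set, its lists and its tests were chosen with earlier results of these data known. Tests used limma 3.58.1 in R 4.3.3 (empirical Bayes with a mean trend, two-sided) on log2(value + 1), for genes with a value of 10 in 6 libraries of the fit, with fish as a term and Benjamini-Hochberg adjustment over all genes at 0.05. The added 1 shrinks log2 differences of genes with low values. Where libraries held no reads, a mean of logs can also give a larger fall than edgeR and DESeq2. At 250 µM AsSug top2a was at -1.71 on that scale, -0.98 in edgeR and -1.02 in DESeq2. The AsSug control, 5, 10 and 50 µM groups shared a fit, and 250 µM was fitted with its control alone. Pairing comes from the fish named in the labels: same-fish libraries had a median r of 0.234 (AsIII), 0.364 (AsSug to 50 µM) and 0.0963 (250 µM) after removal of group means, against -0.0432, -0.0744 and -0.0296 for other fish. EdgeR 4.0.16 and DESeq2 1.42.0 on recovered reads were alternatives. Fits of the AsSug groups, not those of AsIII, were also run on simulated counts. For 250 µM no minimum share of recovered changes was required there. Named genes were, among those with a symbol, the 12 largest returns, 8 lowest at 1 µM, 8 highest in control, up to 4 per list, the 5 largest rises and falls at 250 µM, those called at lower AsSug concentrations, and 3 on each side of each threshold. Others are said to be picked out. Reads without molecular identifiers are not independent molecules. No promoter or protein sequences were used here.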

Additional observations from a re-analysis of the deposited data

Results flagged for a closer look

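In 83 groups of 6 libraries checked for 1 value far from the rest (27 genes), 3 stood out; chance alone flags about 1 in 20 groups. Tp53inp2b at 3 µM AsIII had 1604 in fish 1, with the other 5 libraries at 959 to 1122. Kif4 at 1 µM AsIII had 25.3 in fish 1, with the others at 5.45 to 10.3. Incenp at 250 µM AsSug had 467 in fish 6, with the others at 178 to 285.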

How the results depend on the processing

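Of the 220 genes, 132 met the conditions when scaled by library totals and 128 with a control mean of 50, of which mitosis genes made 3. The limit of 50 also lowers the number of mitosis genes that could meet the conditions. With TMM factors 211 genes met them, 209 of these among the 220. When 1 fish was left out, 202 to 242 genes met them, 187 to 204 of these among the 220, and 9 to 12 mitosis genes, 9 to 10 of these among the 10. The mitosis count under these settings was chosen after seeing the data. In the AsSug plates, leaving out the replicate block gave 0 higher genes at 5 µM, 0 higher and 0 lower at 50 µM, and 60 lower and 55 higher at 250 µM. With all AsSug groups in 1 fit there were 0 higher at 5 µM, and 1 higher and 0 lower at 50 µM. DESeq2 called 6 higher and 1 lower at 5 µM, and library totals 1 higher at 10 µM. Without 1 fish, counts at 5 µM were 1 to 5 higher and 0 to 1 lower, at 10 µM 0 to 3 higher (3 without fish 6) and 0 lower, at 50 µM 1 to 9 higher and 1 to 3 lower, and at 250 µM 51 to 64 higher and 50 to 61 lower. Genes differing between fish numbered 98 to 132. The cause of these changes was not tested. Of 12 named genes at 250 µM AsSug, none changed sign under the 15 alternatives, and mki67 lost its call in 8 of them (values of -0.89 to -0.41 over the 15). Promoter motifs planned for the set were not run.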
